A study of Mus musculus with 20 samples.

Results

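The genes described here are 7 genes of MHC class I antigen presentation, taken by name: H2-K1, H2-D1, B2m, Tap1, Tap2, Tapbp and Nlrc5. All 7 were found among the 23992 gene symbols of the series, and where a gene had several transcripts, the one holding the largest sum of reads over the 20 libraries stood for it. RNA was sequenced from mouse regulatory T cells (Tregs) and CD8+ T cells taken from spleen and lymph node and stimulated ex vivo. Tregs were sorted on the GFP reporter of B6-Foxp3EGFP mice after enrichment of CD4+ T cells, whereas CD8+ T cells were isolated with a kit alone from C57BL/6J mice, although the sample records give C57BL/6N for every sample. Each cell type received no cytokine or one of 2 agonists at 200 nM, the full agonist IL-2 and the partial agonist called IL-2-REH. RNA was taken after 90 min or 4 hr with an agonist, whereas the unstimulated libraries are labelled 0 hr. None is labelled as kept without cytokine for 90 min or 4 hr. In comparisons with unstimulated cells, cytokine and time in culture therefore cannot be told apart. IL-2-REH is an IL-2 variant with substitutions at the surface that contacts the common gamma chain of the receptor. The 5 Treg groups had 3 libraries each, numbered 1 to 3, and the 5 CD8+ groups had 1 library each. The age and number of the mice were not given in the sources used here, so p-values measure the spread between libraries, which may be technical in part.

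MHC class I molecules display peptides from inside the cell to CD8+ T cells. A heavy chain, such as H2-K1 or H2-D1, pairs with the light chain beta-2 microglobulin (B2m) and receives peptides that the transporter Tap1-Tap2 pumps into the endoplasmic reticulum and that tapasin (Tapbp) helps to load. Nlrc5 is the transactivator of class I genes and acts at their promoters through the conserved SXY module, and interferon gamma is the classical inducer of the whole pathway. IL-2 signals in T cells mainly through Stat5.

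The promoters are shown because the heavy and light chain genes share a module there on which Nlrc5 acts, and Nlrc5 was the member with the largest difference between the cytokines at 4 hr in both cell types. RefSeq (GRCm38.p6) windows of 250 bases before to 50 bases after the start were matched for 5 genes by symbol, with 2 windows for H2-K1. Tap2 and Nlrc5 had no entry. The 150 bases before the start are printed on the strand of the gene, and capitals mark each match to the motifs searched on both strands: TGACG (the core of the X2 box, also of cyclic AMP response elements), CCAAT (the Y box, ATTGG on the other strand), GAAANNGAA (interferon-stimulated response element core) and TTCNNNGAA (the gamma-activated site bound by Stat factors). These matches did not overlap one another. For Tapbp the 150 bases are not printed. They held no match to any of these motifs, and the whole Tapbp window held no TGACG. Its 2 CCAAT matches lay farther from the start.
H2-K1 (chr17:34000348-34000497, minus strand): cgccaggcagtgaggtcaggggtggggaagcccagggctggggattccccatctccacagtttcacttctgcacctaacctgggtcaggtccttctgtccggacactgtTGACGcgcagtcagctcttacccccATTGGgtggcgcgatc
H2-D1 (chr17:35262944-35263093, plus strand): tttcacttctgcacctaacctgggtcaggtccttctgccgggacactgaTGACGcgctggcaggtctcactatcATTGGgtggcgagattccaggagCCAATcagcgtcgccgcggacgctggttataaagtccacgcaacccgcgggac
B2m (chr2:122147537-122147686, plus strand): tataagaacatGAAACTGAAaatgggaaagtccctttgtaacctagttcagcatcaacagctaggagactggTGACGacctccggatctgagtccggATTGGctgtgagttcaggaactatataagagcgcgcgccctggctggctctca
Tap1 (chr17:34187406-34187555, plus strand): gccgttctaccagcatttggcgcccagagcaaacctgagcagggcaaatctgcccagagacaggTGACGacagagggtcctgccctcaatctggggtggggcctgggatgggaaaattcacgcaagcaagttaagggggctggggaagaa

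In H2-K1, H2-D1 and B2m the TGACG match was followed on the same strand by ATTGG, with 25 bases from the first base of one to the first base of the other in each of the 3 genes. This spacing was noticed in the sequences and then counted: 31 of the 32851 promoter windows (0.0944%) held the same pair, and among the genes of the lists used here H2-M3 was the only other one. Singly the letters are common, since 20.8% of the windows held TGACG and 37.4% held CCAAT on either strand. GAAANNGAA, in this exact spelling, was found in 8.56% of the windows and among the members only in B2m. Other spellings of an interferon-stimulated response element were not searched for. The lack of a match in H2-K1, H2-D1, Tap1 and Tapbp therefore does not show that these promoters lack such an element. TTCNNNGAA was found in 8.3% of the windows and in none of the 6 member windows. A match describes letters only and is no evidence that a factor binds there.

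Of the members, 5 lie in the MHC region of chromosome 17 on GRCm38: Tapbp (NM_001025313) from 33919478 to 33929290, H2-K1 (NM_001001892) from 33996012 to 34000619, Tap1 (NM_013683) from 34187556 to 34197225, Tap2 (NM_011530) from 34204479 to 34216321 and H2-D1 (NM_010380) from 35263094 to 35267497. B2m (NM_009735) lies on chromosome 2 from 122147687 to 122153082, and Nlrc5 (NM_001033207) on chromosome 8 from 94434335 to 94527272. The positions are those of the RefSeq gene and not of the transcript named, and the H2-K1 gene reaches past the starts used for its promoter windows. Reads had to map uniquely, and the methods do not say whether their strand was used, so near-identical copies and overlapping genes limit some values. H2-L, a class I gene close in sequence to H2-D1, held between 61.4% and 76.4% as many reads as H2-D1 in each library, and how many of these belong to either gene was not tested. B2m overlaps Patl2 on the other strand, which reached at most 0.789 RPKM, and Nlrc5 overlaps 9330175E14Rik at 1.32 to 5.42 RPKM.

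Libraries held 20201392 to 63903764 reads on genes, and the smallest count of any member in any library was 4606 reads (Tap2). The cell types matched their labels, since Foxp3 lay between 65.2 and 251.8 RPKM in Tregs and under 1 RPKM in the CD8+ libraries (at most 0.999), and Cd8a lay between 103 and 256 RPKM in CD8+ cells and at most at 1.84 in Tregs. Of 5 B cell markers, 1 in Tregs and 3 in CD8+ cells stayed under 1 RPKM in every library, with a summed level of 1.77 to 17.6 RPKM in Tregs and 3.29 to 10.7 in CD8+ cells, and of 5 dendritic cell markers 4 stayed under 1 RPKM in each cell type (summed 1.78 to 6.71 and 2.39 to 3.91). The 4 macrophage markers found summed to 7.35 to 53.2 RPKM in Tregs and 13.5 to 28.4 in CD8+ cells, the 4 NK cell markers to 0.0676 to 7.89 and 10.2 to 19.2, and the 5 erythroid markers to 4.36 to 201.1 and 2.201 to 6.70. A library stood apart in each of 2 Treg groups. In unstimulated replicate 1, 14.4% of 10473 genes lay more than 2-fold from the mean of the other two libraries, and in IL-2 4 hr replicate 3, which was the shallowest library, 11.7% did, against 1.05% to 5.07% in the other 13.

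The levels are given in RPKM, reads scaled for exon length and library size, so that genes of different length can be compared. The light chain and the heavy chains were among the most abundant RNAs of the cells: of 10457 genes with a mean of at least 1 RPKM over all 20 libraries, B2m ranked 12th, H2-K1 17th and H2-D1 61st. Tap1 ranked 575th, Tapbp 651st, Tap2 810th and Nlrc5 1162nd. In every library the lowest of B2m, H2-K1 and H2-D1 exceeded the highest of the other 4 genes, by 2.47 to 17.3 times. H2-K1 was above H2-D1 in 20 of 20 libraries, with a ratio of 1.37 to 2.18 in Tregs and 1.57 to 1.74 in CD8+ cells. Tap1 was above its partner Tap2 in 19 of 20 libraries, and Nlrc5 was the lowest member in 15 of 20. Neighbours in this order overlapped in several places. B2m lay above H2-K1 in 8 of 15 Treg libraries and in 5 of 5 CD8+ libraries, and Tap1 lay above Tapbp in 13 of 15 Treg libraries and below it in 5 of 5 CD8+ libraries.

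**Figure D1:**
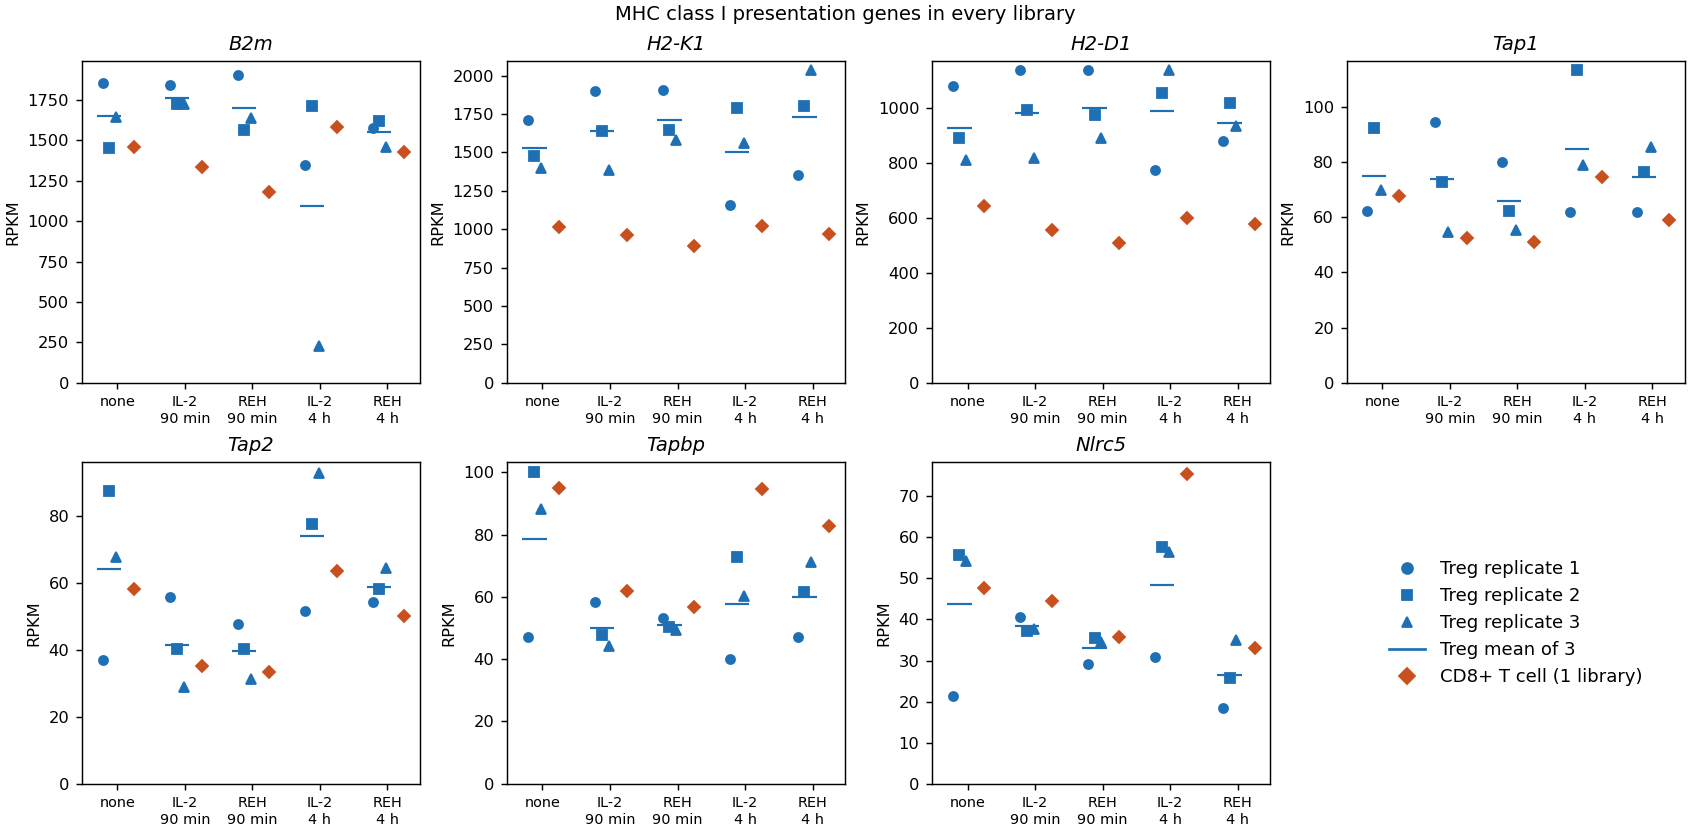
RPKM of the 7 genes (vertical axes, each from 0) in Tregs (blue, symbols for replicates 1 to 3, line for the mean of 3) and CD8+ T cells (orange, 1 library) without cytokine or after 90 min or 4 hr in IL-2 or IL-2-REH (REH). H2-K1 and H2-D1 are higher in all 15 Treg libraries than in the 5 CD8+ libraries, and B2m is far below its group in IL-2 4 hr replicate 3.

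The heavy chains separated the cell types. H2-K1 lay between 1158 and 2037 RPKM in the 15 Treg libraries (median 1639) and between 888 and 1021 in the 5 CD8+ libraries (median 968). H2-D1 lay between 774 and 1141 RPKM in Tregs (median 976) and between 510 and 644 in CD8+ cells (median 579). For both genes every Treg library was above every CD8+ library, by a mean of 0.73 log2 units for H2-K1 (1.66-fold) and 0.74 for H2-D1 (1.67-fold). Of 10457 genes with a mean of at least 1 RPKM, 757 (7.24%) lay above all CD8+ libraries in all 15 Treg libraries, so 2 of 7 members stood against that background. No test was run, because CD8+ groups hold 1 library each and the cell types also differ in mouse line and isolation. In bulk RNA, fewer cells of a type and less RNA per cell cannot be told apart.

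The other 5 members overlapped between the cell types. B2m lay between 230.0 and 1908 RPKM in Tregs (median 1636) and between 1184 and 1586 in CD8+ cells (median 1431). Tap1 was between 54.5 and 113.6 RPKM in Tregs (median 72.8) and between 50.9 and 74.6 in CD8+ cells (median 59.1), and Tap2 was between 28.8 and 92.9 (median 54.2) and between 33.3 and 63.7 (median 50.3). Tapbp tended the other way, with 39.9 to 100.2 RPKM in Tregs (median 53.4) and 56.7 to 94.98 in CD8+ cells (median 82.7), and so did Nlrc5, with 18.5 to 57.7 RPKM in Tregs (median 35.5) and 33.1 to 75.5 in CD8+ cells (median 44.4). Within each of the 4 stimulated conditions, all 3 Treg libraries lay below the CD8+ library for Tapbp, at 0.422 to 0.941 times its RPKM. For Nlrc5 this held with IL-2 at both times and with IL-2-REH at 90 min, but not with IL-2-REH at 4 hr. Of all 10457 genes, 29.8% and 22.8% lay below in this way under IL-2 at 90 min and 4 hr, and 24.4% and 23.6% under IL-2-REH. H2-K1 and H2-D1 had all 3 Treg libraries above in each condition, as did B2m and Tap1 with IL-2 at 90 min and with IL-2-REH at both times, and Tap2 with IL-2-REH at 4 hr, where 32.7% and 33.6% of all genes lay above under IL-2 and 39.7% and 40.5% under IL-2-REH. A position of 3 libraries against 1 was thus common among all genes.

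Within a library, the balance of light to heavy chain separated the cell types, as the heavy chains alone did. The RPKM of B2m divided by the sum of H2-K1 and H2-D1 lay between 0.846 and 0.979 in the 5 CD8+ libraries (median 0.880) and between 0.0852 and 0.783 in the 15 Treg libraries (median 0.626). All Treg libraries lay below all CD8+ libraries, also without IL-2 4 hr replicate 3, when the Treg range was 0.491 to 0.783. This ratio does not depend on how libraries are scaled to each other. Its denominator holds the heavy chains that already separated the cell types, so it is no independent result. How many other gene ratios separate the cell types was not counted.

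**Figure D2:**
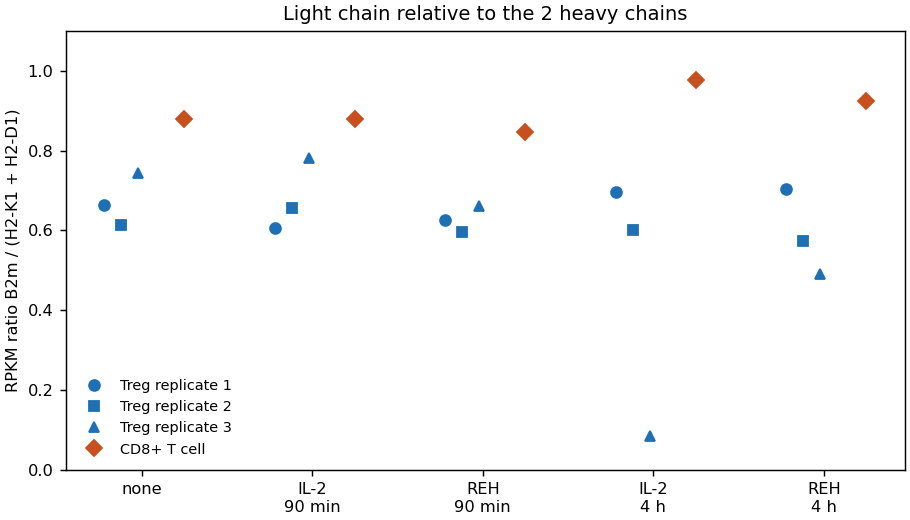
RPKM of B2m divided by the sum of H2-K1 and H2-D1 (vertical axis, from 0) in each library, with Tregs in blue and CD8+ T cells in orange. The CD8+ values sit between 0.846 and 0.979 and the Treg values at or below 0.783, with IL-2 4 hr replicate 3 at 0.0852.

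Of the 27 other class I heavy chain genes listed, 22 had a mean of at least 1 RPKM. Of these, 11 were higher in all 15 Treg libraries than in all 5 CD8+ libraries and 0 lower. Over all 10457 genes, 757 (7.24%) were higher in this way and 287 lower. The median difference of the 22 was 0.60 log2 units, against 0.06 over all genes. H2-L had the highest level among them, 857 to 1419 RPKM in Tregs and 548 to 695 in CD8+ cells. Cd1d1, which presents lipids to NKT cells, lay between 12.4 and 27.2 RPKM in Tregs and between 4.94 and 10.2 in CD8+ cells. H2-Q7 and H2-Q9 held nearly the same reads, as did H2-Q6 and H2-Q8 (correlation of 1.0 in both pairs over the 20 libraries). H2-L followed H2-D1 (correlation of 0.99 over the 20 libraries), and how many of its reads belong to H2-D1 was not tested. All of these are therefore uncertain, and the 11 are fewer independent genes. In the list of 10 genes for peptide loading and trimming, 0 were separated in this way, and likewise 0 of the 6 immunoproteasome and PA28 genes. Under the cytokines 0 of the 23 other heavy chain genes tested in Tregs were called in any comparison. Cd1d1 was called higher with IL-2 at 90 min with the replicate number as a block (0.61, adjusted p = 0.0434 from edgeR), where 1.83% of all genes were called. Without unstimulated replicate 1, Mr1, which presents vitamin B metabolites to MAIT cells, and H2-T24 were called lower in all 4 comparisons with unstimulated cells. The log2 fold changes of Mr1 lay between -1.44 and -1.21 (highest adjusted p 0.00749 from edgeR) and those of H2-T24 between -1.06 and -0.85 (highest adjusted p 0.0438). That fit called 12.9% of all genes at 90 min and 8.87% at 4 hr under IL-2, and 12.1% and 6.93% under IL-2-REH. In the left-out library Mr1 was at 2.06 RPKM and H2-T24 at 8.13. Unstimulated replicates 2 and 3 were at 6.27 and 6.03 RPKM for Mr1 and at 21.2 and 15.6 for H2-T24. In CD8+ cells Mr1 was at 5.53 RPKM unstimulated and 1.50 with IL-2 at 90 min, and H2-T24 at 14.1 and 5.30.

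Tregs with IL-2 or IL-2-REH were then compared with unstimulated Tregs, to ask whether the class I genes differed. The unstimulated libraries are labelled 0 hr, so a difference may belong to the cytokine or to time in culture. No member passed the test at 90 min, and Tap2 and Tapbp had the largest fitted differences. Tap2 was at 37.0, 87.5 and 67.7 RPKM in unstimulated replicates 1, 2 and 3, at 55.7, 40.1 and 28.8 after 90 min with IL-2, and at 47.7, 40.4 and 31.2 with IL-2-REH. The unstimulated values of replicates 2 and 3 lay above all 6 stimulated values, and that of replicate 1 below 4 of them. The log2 fold change of Tap2 was -0.48 (SE 0.27, adjusted p = 0.449 by edgeR's quasi-likelihood test with Benjamini-Hochberg adjustment) with IL-2 and -0.53 (SE 0.27, adjusted p = 0.466) with IL-2-REH. It was lower in 2 of 3 same-numbered pairs with each cytokine.

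Tapbp showed the same arrangement. It was at 47.3, 100.2 and 88.2 RPKM in unstimulated replicates 1, 2 and 3, at 58.3, 47.9 and 44.2 with IL-2 at 90 min, and at 53.4, 50.4 and 49.2 with IL-2-REH. Replicates 2 and 3 of the unstimulated Tregs again lay above all stimulated values and replicate 1 below 5 of the 6. The log2 fold changes were -0.49 with IL-2 (SE 0.24, adjusted p = 0.393 from edgeR) and -0.45 with IL-2-REH (SE 0.24, adjusted p = 0.486). The heavy chain H2-K1 lay the other way by a small amount, at 1714, 1475 and 1398 RPKM unstimulated, 1897, 1639 and 1388 with IL-2 and 1906, 1645 and 1578 with IL-2-REH at 90 min, where the groups overlapped (log2 fold changes 0.22 and 0.28, adjusted p = 0.707 and 0.633).

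Over all genes, edgeR called 0.853% of 15009 at 90 min under IL-2 and 0.0933% under IL-2-REH, and 0 of 7 members in each comparison (0 and 0 at an unadjusted p under 0.05, and 0 called with DESeq2 or limma). The outcome for Tap2 and Tapbp depended on replicate 1. Without replicate 1 in every group, Tap2 and Tapbp were called lower at 90 min, with log2 fold changes of -0.86 (adjusted p = 0.0348) and -0.72 (adjusted p = 0.0275) under IL-2 and -0.83 (adjusted p = 0.043) and -0.63 (adjusted p = 0.0473) under IL-2-REH in edgeR. That fit called 17.3% and 15.7% of all 14477 genes tested in these comparisons, so the 2 of 7 stand against a far larger background than in the fit of all libraries. Leaving out unstimulated replicate 1 alone gave no called member (lowest adjusted p 0.0614 under IL-2 and 0.0698 under IL-2-REH, with 12.9% and 12.1% of 15494 genes called), whereas leaving it out and also adding a block for replicate number called Tapbp with IL-2 (-0.58, adjusted p = 0.033) and Tapbp (-0.56, adjusted p = 0.0394) and H2-K1 (0.55, adjusted p = 0.0454) with IL-2-REH. The latter fit called 26.9% of all genes under IL-2 and 25.4% under IL-2-REH, so the 1 and 2 of 7 members do not stand out from it. The cytokine comparisons share the unstimulated libraries, so the likeness of the 2 sets of values is not an independent repeat.

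**Figure D3:**
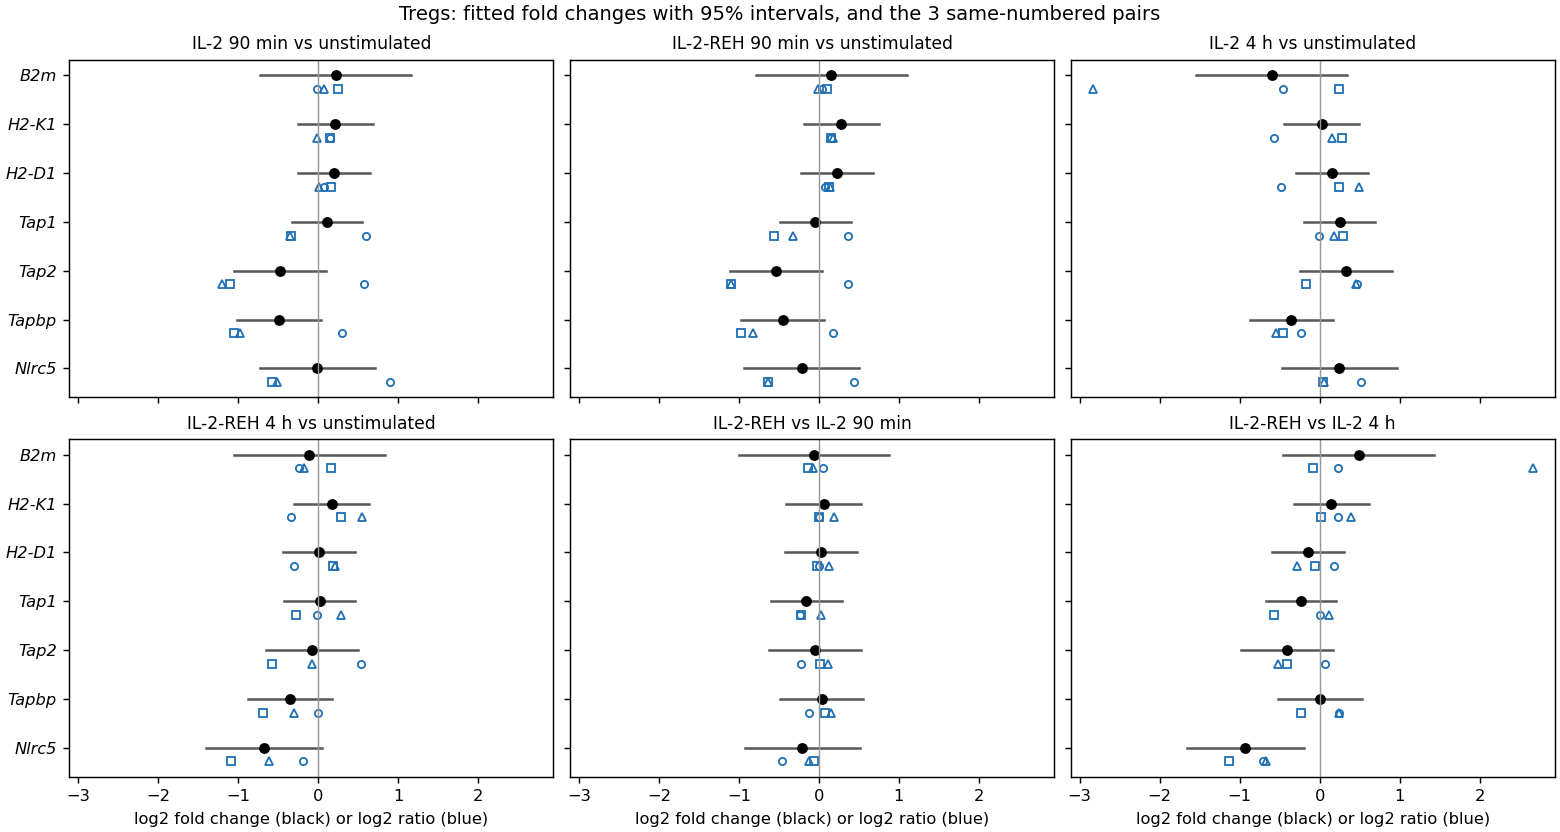
Log2 fold changes of the 7 genes in Tregs from edgeR (black points, lines for 95% confidence intervals) and log2 ratios of RPKM + 1 in same-numbered pairs (blue, symbols for replicates 1 to 3) in 6 comparisons. In all comparisons with unstimulated cells the intervals include 0, and at 90 min pair 1 lies to the right of pairs 2 and 3 for Tap1, Tap2, Tapbp and Nlrc5.

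At 4 hr the members in Tregs were again not called, against a background of 2.27% of genes under IL-2 and 0.313% under IL-2-REH, and 0 of 7 had an unadjusted p under 0.05 in either comparison (DESeq2 and limma called 0). Tapbp was at 39.9, 72.9 and 60.3 RPKM with IL-2 and at 47.2, 61.7 and 71.2 with IL-2-REH in replicates 1, 2 and 3. It lay below the unstimulated library of the same number in 3 of 3 pairs with each cytokine. Pair 1 with IL-2-REH was nearly level, however (log2 ratio -0.003). The log2 fold changes were -0.35 and -0.35 (SE 0.24 each, adjusted p = 0.476 and 0.577 from edgeR). Nlrc5 had unstimulated values of 21.3, 55.8 and 54.3 RPKM in replicates 1, 2 and 3. With IL-2-REH at 4 hr it was at 18.5, 25.7 and 35.1 RPKM, lower in 3 of 3 pairs (log2 fold change -0.68, SE 0.34, adjusted p = 0.414 from edgeR). With the replicate block it was -0.66 and not called (unadjusted p = 0.00651, adjusted p = 0.0967 from edgeR). Unstimulated replicate 1 lay within the range of the IL-2-REH values and the other two above it. Without unstimulated replicate 1 and with the replicate block, Nlrc5 was called lower (-0.83, adjusted p = 0.00817 from edgeR), the 1 member called where that fit called 16.7% of all genes.

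From 90 min to 4 hr with IL-2, Tap2 went from 55.7, 40.1 and 28.8 RPKM to 51.6, 77.6 and 92.9 in replicates 1, 2 and 3. It was higher in 2 of 3 pairs, with a log2 fold change of 0.81 (SE 0.27, unadjusted p = 0.00953, adjusted p = 0.214 from edgeR), and without replicate 1 in every group it was called (1.15, adjusted p = 0.0359), as were 4.32% of 14477 genes. With IL-2-REH the step in Tap2 was 0.46 (SE 0.27, adjusted p = 0.444), to 54.2, 58.3 and 64.4 RPKM at 4 hr, and it was higher in 3 of 3 pairs. Between the time points edgeR called 0 of 7 members and 0.0% of genes with either cytokine (2551 genes under IL-2 and 2188 under IL-2-REH had an unadjusted p under 0.05, and DESeq2 called 382 and 251, none of them a member).

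B2m in IL-2 4 hr replicate 3 was the single value farthest from its group. B2m was at 1346, 1713 and 230.0 RPKM in the 3 libraries with IL-2 at 4 hr, whereas all other Treg libraries lay between 1346 and 1908. In that library B2m was 2.72 log2 units below the mean of replicates 1 and 2, the 9th lowest of 7081 genes with a mean of at least 5 RPKM, while H2-K1, H2-D1, Tap2, Tapbp and Nlrc5 were 0.12 to 0.55 above and Tap1 0.09 below (-0.09). Short transcripts were lower there as a group. The median was -0.35 for 345 genes with exons under 700 bases and -0.37 for 370 genes from 700 to 1000 bases, against -0.20 over all genes, and the B2m transcript has 858 exonic bases. The part of transcript length in the B2m value was not tested. The log2 fold change of B2m with IL-2 at 4 hr was -0.60 (SE 0.44, adjusted p = 0.51 from edgeR) with the library. Without it the value was -0.13 (adjusted p = 0.854).

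IL-2-REH and IL-2 were compared at the same dose and time, over 7 members and 2 times. At 90 min in Tregs no member was called, against a background of 0.0133% of genes called by edgeR (0 members at an unadjusted p under 0.05, DESeq2 and limma 0). The 95% intervals of the IL-2-REH minus IL-2 difference were -0.41 to 0.53 log2 units for H2-K1, -0.42 to 0.48 for H2-D1, -1.003 to 0.88 for B2m, -0.59 to 0.28 for Tap1, -0.62 to 0.52 for Tap2, -0.49 to 0.55 for Tapbp and -0.93 to 0.51 for Nlrc5. These intervals do not show that the cytokines act alike.

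At 4 hr the cytokines differed most in Nlrc5. Nlrc5 was at 30.9, 57.7 and 56.3 RPKM in replicates 1, 2 and 3 with IL-2 and at 18.5, 25.7 and 35.1 with IL-2-REH. It was lower with IL-2-REH in 3 of 3 same-numbered pairs, although the IL-2 value of replicate 1 lay below the IL-2-REH value of replicate 3. The log2 fold change was -0.93 (SE 0.34, 95% interval -1.66 to -0.20, unadjusted p = 0.0161), which did not pass the adjustment over 15009 genes (adjusted p = 1.0 from edgeR, and 0.151 with the replicate number as a block). The background of called genes was 0.0267%, and 0 of 7 members were called by edgeR, DESeq2 or limma (1 of 7 at an unadjusted p under 0.05). The intervals of the others all included 0: -0.32 to 0.61 for H2-K1, -0.60 to 0.31 for H2-D1, -0.45 to 1.43 for B2m, -0.67 to 0.21 for Tap1, -0.98 to 0.17 for Tap2 and -0.52 to 0.52 for Tapbp. The change of this difference from 90 min to 4 hr was -0.72 for Nlrc5 (SE 0.48, adjusted p = 1.0 from edgeR), and 0 of 7 members and 0.0% of genes were called (47 genes at an unadjusted p under 0.05, DESeq2 0).

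In CD8+ T cells each group was 1 library, so the values have no replicate check and no test was run. Ratios are log2 ratios of RPKM + 1, which hardly shifts genes at these levels, and counting error alone gave a 95% half-width of at most 0.0535 log2 units for any member. At 90 min all 7 members were lower with either cytokine, most of all Tap2 and Tapbp. Their median log2 ratios were -0.21 (IL-2) and -0.40 (IL-2-REH), against medians of -0.04 and -0.12 over all genes. How many of all genes were lower was not counted. Tap2 was at 58.1 RPKM unstimulated, 35.1 under IL-2 and 33.3 under IL-2-REH (log2 ratios -0.71 and -0.79). Tapbp was at 94.98, 62.0 and 56.7 RPKM (log2 ratios -0.61 and -0.73). Tap1 was at 67.6, 52.6 and 50.9 RPKM (-0.36 and -0.40), whereas H2-K1 differed least, at 1013, 963 and 888 RPKM (-0.07 and -0.19). No member passed 2-fold, which 7.24% of 10021 genes did under IL-2 and 8.57% under IL-2-REH. In the unstimulated CD8+ library the B cell markers summed to 10.7 RPKM and the macrophage markers to 28.4, against 3.29 to 5.34 and 13.5 to 17.8 in the stimulated ones, and their part in these ratios was not tested.

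By 4 hr with IL-2, 5 of 7 members in CD8+ cells were above the unstimulated level. With IL-2-REH all 7 were below that level, although B2m came to 0.0048 when libraries were centred on their medians. The median log2 ratios of the 7 were 0.12 (IL-2) and -0.19 (IL-2-REH), against -0.07 and -0.02 over all genes. Tap2 was at 63.7 RPKM under IL-2 and 50.3 under IL-2-REH, Tapbp at 94.6 and 82.7, and Tap1 at 74.6 and 59.1. Nlrc5 differed most. From 47.7 RPKM unstimulated it was at 75.5 with IL-2 (log2 ratio 0.65) and 33.1 with IL-2-REH (log2 ratio -0.51). Against unstimulated cells 0 of 7 members passed 2-fold at 4 hr, while 4.71% of genes did under IL-2 and 6.11% under IL-2-REH. B2m was at 1586 RPKM under IL-2 and 1431 under IL-2-REH, against 1458 unstimulated (log2 ratios 0.12 and -0.03).

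**Figure D4:**
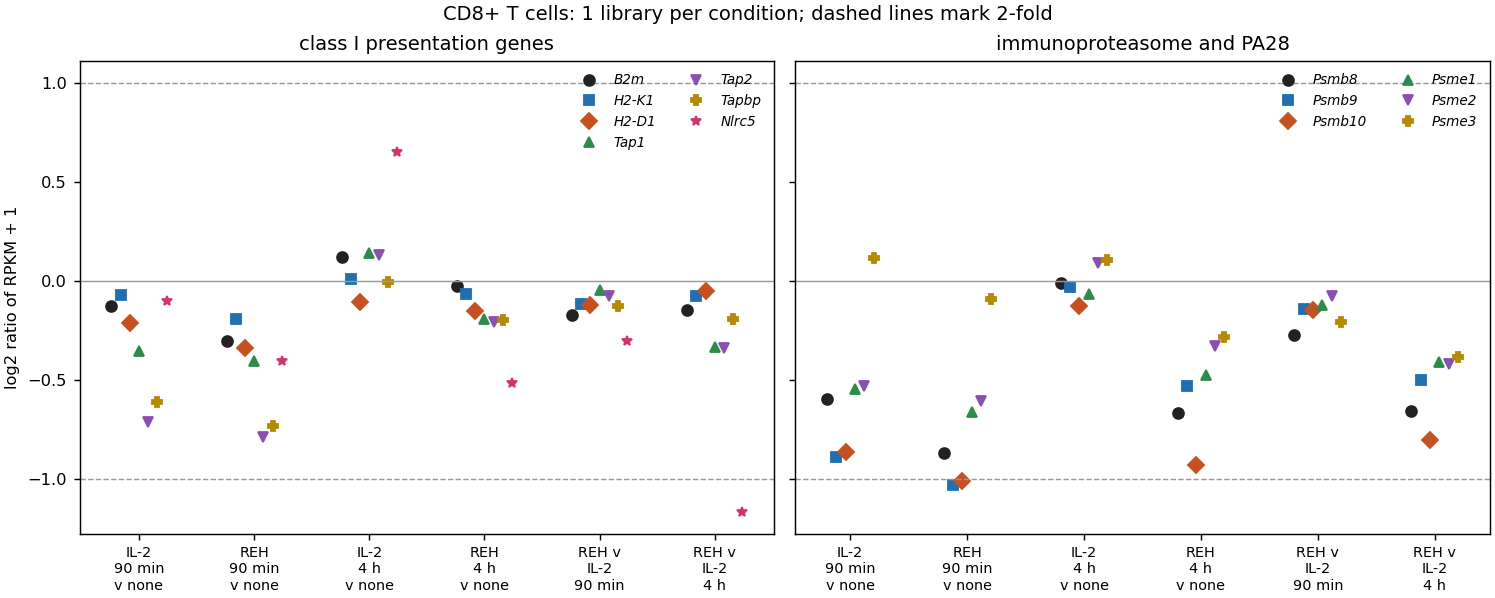
Log2 ratios of RPKM + 1 in CD8+ T cells (1 library per condition, no error available) for the 7 class I genes on the left and for 6 immunoproteasome and PA28 genes on the right, with dashed lines at 2-fold. At 90 min Tap2 and Tapbp lie between -0.61 and -0.79, and in IL-2-REH against IL-2 at 4 hr Nlrc5 lies at -1.17.

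Directly compared in CD8+ cells, IL-2-REH gave lower values than IL-2 for all 7 members at both times, except that centring libraries on their medians placed Tap1 at 0.03 at 90 min. At 90 min the log2 ratios lay between -0.30 (Nlrc5) and -0.05 (Tap1), with a median of -0.12 against -0.07 over all genes, and none passed 2-fold (0.868% of genes did). At 4 hr Nlrc5 passed 2-fold, at 33.1 RPKM with IL-2-REH against 75.5 with IL-2 (log2 ratio -1.17), as did 2.23% of all genes. The other 6 members lay between -0.34 (Tap2) and -0.05 (H2-D1), with a median over the 7 of -0.19 against 0.08 over all genes. No interval between cultures can be given for these differences.

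The genes that surround this pathway were followed as lists. The immunoproteasome subunits Psmb8, Psmb9 and Psmb10 cut the peptides that Tap carries, PA28 (Psme1 and Psme2) activates the proteasome, and Psmb8 and Psmb9 lie beside Tap1 and Tap2. In CD8+ cells 5 of the 6 genes of this list were lower at 90 min under IL-2 and 6 of 6 under IL-2-REH (median log2 ratios -0.57 and -0.76, against -0.04 and -0.12 over all genes). Psmb9 was at 54.8 RPKM unstimulated, 29.2 under IL-2 and 26.4 under IL-2-REH, and Psmb10 at 44.0, 23.8 and 21.4. These 2 genes passed 2-fold with IL-2-REH (log2 ratios -1.03 and -1.01), as did 8.57% of all genes. At 4 hr the list was near the unstimulated level with IL-2 (median -0.02) and below it with IL-2-REH (median -0.50). In Tregs the same 6 genes were all tested and 0 were called in any comparison, with medians of -0.31 under IL-2 and -0.30 under IL-2-REH at 90 min, and their highest level was that of Psme1 (mean of 162.6 RPKM over 20 libraries).

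Most genes of the interferon gamma list lay lower with IL-2-REH than with IL-2 in CD8+ cells at 4 hr, as Nlrc5 did. Of 25 listed genes 24 were expressed there. With IL-2 at 4 hr, 16 were more than 2-fold higher than unstimulated and 1 more than 2-fold lower, with a median log2 ratio of 1.26 against -0.07 over all genes. Of all 10021 genes, 4.71% passed 2-fold there in either direction. The interferon-inducible GTPase genes Gm12250, Iigp1 and Irgm2 had the largest ratios (2.83, 2.81 and 2.73). Gm12250 was at 6.55 RPKM unstimulated and 52.7 with IL-2, Iigp1 at 3.87 and 33.1, and Irgm2 at 8.12 and 59.4. With IL-2-REH at 4 hr only 2 were more than 2-fold higher and 1 lower (median 0.15), where 6.11% of all genes passed 2-fold. Between the cytokines at 4 hr, 21 of the 24 were lower with IL-2-REH and 3 higher. The 3 were the kinase genes Jak1 (log2 ratio 0.81) and Jak2 (0.32) and the receptor gene Ifngr1 (0.20). More than 2-fold, 13 were lower and 0 higher (median -1.06 against 0.08 over all genes), while 2.23% of all genes passed 2-fold. Among the 13 were Iigp1 (5.10 RPKM, log2 ratio -2.48), Gm12250 (8.95 RPKM, -2.43) and the guanylate-binding protein gene Gbp6 (7.46 against 34.7 RPKM, -2.08). Ifng itself was at 7.89 RPKM unstimulated, 1.70 under IL-2 and 0.561 under IL-2-REH at 4 hr.

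**Figure D5:**
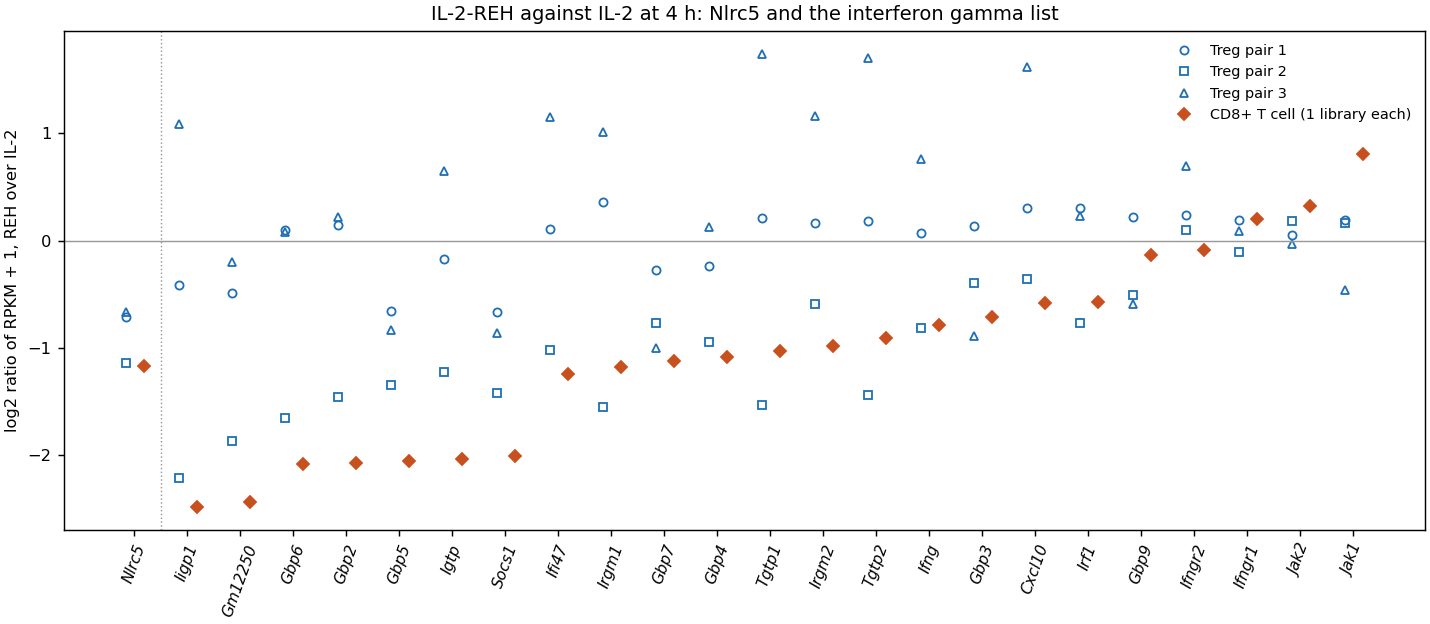
Log2 ratio of RPKM + 1, IL-2-REH over IL-2 at 4 hr, for Nlrc5 (left of the dotted line) and the genes of the interferon gamma list named on the axis, ordered by the CD8+ value (orange, 1 library each). The 3 Treg pairs (blue) are all below 0 for Nlrc5, Socs1, Gbp5, Gbp7 and Gm12250, and spread on both sides of 0 for most others.

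In Tregs, 2 of the 25 interferon gamma genes rose with IL-2 at 90 min and 3 at 4 hr, and 0 fell, where 0.853% and 2.27% of all genes were called. Socs1, the feedback inhibitor of cytokine receptor signaling, rose from 10.3, 25.4 and 15.2 RPKM in replicates 1, 2 and 3 to 119.8, 67.9 and 39.1 at 90 min (log2 fold change 2.28, SE 0.38, adjusted p = 0.0111 from edgeR) and to 86.1, 101.8 and 56.3 at 4 hr (2.36, adjusted p = 0.00691). Gbp5 rose at both times (1.82, adjusted p = 0.0036, and 1.60, adjusted p = 0.00682), and Gbp2 at 4 hr (1.36, adjusted p = 0.0418). None was called with IL-2-REH, where 0.0933% of all genes were called at 90 min and 0.313% at 4 hr. With the replicate number as a block, 4 rose and 2 fell with IL-2 at 4 hr, and 1 rose and 2 fell with IL-2-REH, while 6.92% and 3.03% of all genes were called, Ifng among those that fell with both (adjusted p = 0.0269 and 0.0356 from edgeR). In IL-2-REH against IL-2 at 4 hr, 0 of the 25 were called and 3 had an unadjusted p under 0.05, Gbp5, Socs1 and Gm12250, each lower in 3 of 3 pairs like Nlrc5. The log2 fold change was -1.07 for Gbp5 (SE 0.26, adjusted p = 0.374 from edgeR). Without unstimulated replicate 1, the calls in the list with IL-2 were 5 higher and 0 lower at 90 min and 5 higher and 1 lower at 4 hr, and with IL-2-REH 5 and 0, and 1 and 2. Over all genes that fit called 12.9% and 8.87% under IL-2 and 12.1% and 6.93% under IL-2-REH at 90 min and 4 hr.

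The type I interferon and class II lists were followed as neighbours of the pathway. Of 20 type I interferon response genes in Tregs, 0 were called at 90 min with either cytokine, and at 4 hr 1 was called higher with IL-2, Stat2 (from 11.3, 17.4 and 13.6 to 18.0, 29.2 and 23.6 RPKM, log2 fold change 0.82, adjusted p = 0.0273 from edgeR), and 0 with IL-2-REH. At 4 hr that fit called 2.27% of all genes under IL-2 and 0.313% under IL-2-REH. The median of the list was nonetheless -1.26 under IL-2 and -0.98 under IL-2-REH at 4 hr, against -0.0017 and 0.0138 over all genes. With the replicate block 7 were called lower and 1 higher under IL-2 and 3 lower under IL-2-REH at 4 hr, against 6.92% and 3.03% of all genes called in either direction, and 0 at 90 min. Without unstimulated replicate 1 the calls at 4 hr were 11 lower and 1 higher under IL-2 and 9 lower and 0 higher under IL-2-REH, against 8.87% and 6.93% of all genes. At 90 min that fit called 7 lower and 0 higher under IL-2 and 8 lower and 1 higher under IL-2-REH, against 12.9% and 12.1%. In CD8+ cells 10 of its 16 expressed genes were more than 2-fold lower with IL-2-REH at 4 hr, such as Mx1 (4.44 to 0.238 RPKM) and Isg15 (6.83 to 0.950 RPKM), and 4 with IL-2. Over all genes 6.11% and 4.71% passed 2-fold in either direction. Of 10 MHC class II genes in Tregs, H2-Oa, which restrains class II peptide loading, fell with IL-2 at 4 hr (3.37, 6.61 and 5.98 to 0.908, 2.22 and 1.21 RPKM, log2 fold change -1.81, adjusted p = 0.0291), and the other 9 were not called. With the replicate block H2-Oa was also called lower with IL-2-REH at 4 hr (-1.36, adjusted p = 0.00497 from edgeR) and from 90 min to 4 hr with IL-2 (-1.54, adjusted p = 0.0143), where 0.386% of all genes were called. Without unstimulated replicate 1, H2-DMa, a chaperone of class II peptide loading, was called lower in all 4 comparisons with unstimulated cells (-1.32 to -1.15, highest adjusted p 0.014 from edgeR). H2-DMa was at 2.74, 8.09 and 9.39 RPKM in unstimulated replicates 1, 2 and 3, so the left-out value lay among the stimulated ones (2.69 to 4.18). Of the 7 class II genes expressed in CD8+ libraries, 5 were more than 2-fold lower with each cytokine at 4 hr. All genes passed 2-fold there in 4.71% of cases under IL-2 and 6.11% under IL-2-REH. Class II genes are also expressed by B cells, dendritic cells and macrophages. In unstimulated Tregs the B cell markers summed to 2.37 to 16.5 RPKM, against 2.63 to 7.39 with IL-2 at 4 hr and 3.98 to 17.6 with IL-2-REH at 4 hr. The macrophage markers summed to 13.2 to 53.2, 7.35 to 25.1 and 10.9 to 31.4 RPKM, and the dendritic cell markers to 1.78 to 3.32, 1.91 to 4.39 and 2.402 to 6.71. The part of these cells in the class II values was not tested. Of 12 regulators of class I transcription and 10 genes for peptide loading and trimming, 0 were called in Tregs in any comparison. Without unstimulated replicate 1, Nfkb1 (1.45, adjusted p = 0.0184 from edgeR) and Rela (0.82, adjusted p = 0.0295) were called higher and Rfx5 (-0.82, adjusted p = 0.0279) lower with IL-2 at 90 min. In the same fit Nfkb1 and Rela were called higher with IL-2-REH at 90 min, and at 4 hr Nfkb1 was called higher with IL-2 and Rfx5 lower with both cytokines. The left-out library was at 157.5 RPKM for Nfkb1, 49.5 for Rela and 3.98 for Rfx5. Unstimulated replicates 2 and 3 were at 83.4 and 76.4, 36.7 and 32.1, and 9.71 and 7.56. That fit called 12.9% and 8.87% of all genes under IL-2 and 12.1% and 6.93% under IL-2-REH at 90 min and 4 hr. The highest mean levels of the regulator list and of the loading and trimming list over 20 libraries were those of Nfkb1 (138 RPKM) and of the chaperone Hspa5 (178 RPKM).

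Correlations of log2(RPKM + 1) across the 15 Treg libraries are given as a description, over libraries that share replicate number and depth. The 2 heavy chains varied together (r = 0.76), as did Tap1 with Tap2 (0.74), Tap2 with Tapbp (0.74) and Tapbp with Nlrc5 (0.64), and Tap1 with H2-K1 (0.55) and H2-D1 (0.52), whereas Nlrc5 had r = 0.01 with each of the heavy chains. B2m had r = -0.23 with H2-D1, and 0.70 without IL-2 4 hr replicate 3. Among 7089 genes with a mean of at least 5 RPKM in Tregs, the patterns most like those of the members were H2-Bl (0.94) and Pqbp1 (0.90) for H2-K1, H2-L (0.96) and Fen1 (0.95) for H2-D1, Dazap2 (0.99) and Pdcd10 (0.98) for B2m, Wbscr22 (0.90) and Scap (0.90) for Tap1, Usp5 (0.97) and Sympk (0.97) for Tap2, Uba7 (0.93) and Uspl1 (0.93) for Tapbp, and Mybbp1a (0.88) and Celsr1 (0.85) for Nlrc5. The values for B2m rest in part on IL-2 4 hr replicate 3, without which Dazap2 had r = 0.79 and Pdcd10 r = 0.85 over 14 libraries. H2-L and H2-D1 may share reads, so their likeness may not be that of separate genes. For the mean pattern of the 7 members they were Nrf1 (0.90), Mfn2 (0.89), Scap (0.88), Taf1c (0.87) and Mta2 (0.87).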

How the data were processed

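The authors mapped 50-base single-end reads to mm10 with Bowtie2 2.2.6 and TopHat2 2.1.1 (versions from the submitters' processing notes, which also name SAMtools 0.1.8, bedtools 2.25.0 and edgeR), discarded reads without a unique position, and deposited the read count of each RefSeq transcript over its exons, without normalization, beside its RPKM. The sample records name the mRNA kit but no strand setting for counting.

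Counts of the 15 Treg libraries were tested with edgeR 4.0.16 in R 4.3.3 (TMM, filterByExpr, glmQLFit and glmQLFTest, 1 mean per group), with p-values adjusted by Benjamini-Hochberg over 15009 genes and a threshold of 0.05. The block of replicate numbers was a second fit. The main edgeR fit, DESeq2 and limma did not use the replicate numbers, so their intervals and p-values are unpaired. Deviations from the group means were shared by libraries of the same number in 30 of 30 pairs (r over 0.1 across genes, lowest 0.121, mean 0.538), so the numbers of the labels pair the libraries. The mean for different numbers was -0.257. Centring each group on its 3 libraries makes it negative when the same-numbered mean is positive, so it adds no support. CD8+ ratios and the comparison of cell types used RPKM without a test. The pseudocount was 1 RPKM and the minimum a mean of 1 RPKM. In each list, up to 3 called genes of largest change were named per comparison, or the genes of highest level where none was called. Some genes were chosen after their values were seen. These were the genes named for an unadjusted p within a list, Jak1, Jak2 and Ifngr1 in CD8+ cells, and Ifng in IL-2 at 4 hr. The members and lists were chosen with earlier results of these data known. Alternatives were DESeq2 1.42.0, limma 3.58.1 on log2(RPKM + 1) or + 0.1, RLE factors, other filters, left-out libraries and the longest transcript. The fits were tested on simulated data. Tables were made with Python 3.11.15, numpy 2.4.6 and pandas 2.3.3, and figures with matplotlib 3.10.9. One gene of the interferon gamma and regulator lists counts in them but is not reported here by name.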

Additional observations from a re-analysis of the deposited data

Results flagged for a closer look

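Over 7 genes and 6 comparisons, 5 results had all 3 same-numbered Treg pairs on one side of 0 and the CD8+ libraries on the other, and the difference between the cell types was not tested in any of them. This is 11.9% of 42 results, and over 10457 genes and the same 6 comparisons 8.61% had this arrangement. All 5 concern the heavy chains, and all are small. H2-D1 with IL-2 at 90 min had log2 ratios of 0.08, 0.16 and 0.01 in the Treg pairs and -0.21 in CD8+ cells. With IL-2-REH at 90 min H2-D1 had 0.08, 0.13 and 0.14 in Tregs and -0.34 in CD8+ cells, and H2-K1 had 0.15, 0.16 and 0.17 in Tregs and -0.19 in CD8+ cells. Between IL-2-REH and IL-2, H2-K1 had 0.01, 0.01 and 0.19 in Tregs against -0.12 in CD8+ cells at 90 min, and 0.22, 0.01 and 0.39 against -0.0766 at 4 hr. The comparisons share unstimulated and IL-2 libraries, so these are fewer than 5 independent observations.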

How the results depend on the processing

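No member was called in the 9 Treg comparisons by edgeR, with the replicate number as a block (lowest adjusted p 0.242, 0.274, 0.3 and 0.0967 against unstimulated cells in the order IL-2 at 90 min and 4 hr, IL-2-REH at 90 min and 4 hr), with DESeq2, RLE factors or limma, or with other filters, and the block changed no call of a member. Over all genes it moved the calls in these 4 comparisons from 128, 341, 14 and 47 to 275, 1038, 32 and 455, and DESeq2 gave 553, 996, 113 and 565. Leaving out a replicate number gave 0 to 2 called members at 90 min in IL-2, 0 to 2 in IL-2-REH and 0 to 1 from 90 min to 4 hr with IL-2, and the highest counts came without replicate 1, when 2509, 2269 and 625 of 14477 genes were called. Leaving out unstimulated replicate 1 with the block, chosen after seeing the data, gave 1 at 90 min with IL-2, 2 with IL-2-REH and 1 at 4 hr with IL-2-REH, where 4170, 3933 and 2587 of 15494 genes were called. Leaving out a replicate turned the sign of 4 small IL-2-REH against IL-2 values in Tregs, whose ranges were -0.0089 to 0.0618 for H2-D1, -0.1109 to 0.0378 for Tap2 and -0.0234 to 0.0951 for Tapbp at 90 min, and -0.2809 to 0.0497 for H2-D1 at 4 hr, where the positive value came without IL-2 4 hr replicate 3, also chosen after seeing the data. The cause of these changes was not tested. On log2(RPKM + 0.1) the median of all genes shifted to -0.14 at 90 min with IL-2, -0.13 with IL-2-REH and 0.13 from 90 min to 4 hr with IL-2-REH, and fold changes there are relative to that. In CD8+ cells a threshold of 0.5 log2 units in place of 2-fold gave 2 members at 90 min with IL-2, 2 with IL-2-REH, 1 at 4 hr under IL-2 and 1 under IL-2-REH, while 31.6%, 35.2%, 20.8% and 29.2% of 10021 genes passed it. H2-K1 and H2-D1 remained the 2 members above CD8+ cells in all 6 alternatives. Counting intervals cover counting error only, and with 1 library per CD8+ group the spread between cultures is unknown.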
